A study of Mus musculus with 6 samples.

Results

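The Ebf genes encode a family of transcription factors, with 4 members, Ebf1, Ebf2, Ebf3 and Ebf4, out of 21286 genes in the deposited table. All 4 were taken by gene name, and the family was chosen by the mutant against wild type difference in earlier results of these data, in which one member fell and another rose. The mutant and wild type values of the members are therefore given below as a description, with no test. The tissue was the lateral ganglionic eminence, or LGE, taken from mice at embryonic day 16.5, and its RNA was sequenced in 6 libraries. The Dlx1/2 -/- mutant group (3 libraries) carries the double mutation of the homeobox genes Dlx1 and Dlx2, with no Cre or promoter named in the labels, and the wild type group (3 libraries) came from littermates. All embryos were on a mixed background of C57BL/6J, 129S6 and CD1. The labels do not say whether a library holds 1 embryo or several, nor that the libraries came from separate embryos, and p-values below therefore reflect only how these libraries vary, which may be technical.

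Ebf factors, also called COE or Olf factors, bind DNA through a domain with its own kind of zinc-binding motif and pair with each other through a helix-loop-helix segment. Family members recognise the same palindromic DNA sequence, and neuron types differ in which members they make. In the LGE, the embryonic source of striatal projection neurons, Ebf1 is made by young neurons of the mantle and later by striatal neurons of the direct pathway. Ebf2 and Ebf3 are known from Cajal-Retzius cells and from neurons of the diencephalon, hindbrain and spinal cord, and Ebf4 from olfactory sensory neurons.

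Windows before starts of 3 of the 4 members are shown first. A link of their base composition to the direction of change was not tested. Each line gives the 250 bases before a RefSeq transcript start on GRCm38.p6, 5′ to 3′ on the gene's strand, for Ebf1 (an internal start, chr11:44619978-44620227, plus strand), Ebf3 (chr7:137314446-137314695, minus strand) and Ebf4 (also an internal start, chr2:130295689-130295938, plus strand). Capitals mark CCCNNGGG, the inner part of the Ebf recognition sequence.
Ebf1: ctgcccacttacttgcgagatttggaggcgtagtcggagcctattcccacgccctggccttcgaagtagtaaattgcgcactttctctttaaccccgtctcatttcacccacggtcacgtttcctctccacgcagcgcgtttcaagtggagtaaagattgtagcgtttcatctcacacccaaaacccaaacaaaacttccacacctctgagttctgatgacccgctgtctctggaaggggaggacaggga
Ebf3: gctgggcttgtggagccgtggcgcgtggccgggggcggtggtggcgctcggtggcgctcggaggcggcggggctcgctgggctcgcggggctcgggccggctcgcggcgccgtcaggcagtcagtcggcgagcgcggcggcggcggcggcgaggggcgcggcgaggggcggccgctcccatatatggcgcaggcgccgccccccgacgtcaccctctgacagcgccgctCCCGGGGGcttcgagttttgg
Ebf4: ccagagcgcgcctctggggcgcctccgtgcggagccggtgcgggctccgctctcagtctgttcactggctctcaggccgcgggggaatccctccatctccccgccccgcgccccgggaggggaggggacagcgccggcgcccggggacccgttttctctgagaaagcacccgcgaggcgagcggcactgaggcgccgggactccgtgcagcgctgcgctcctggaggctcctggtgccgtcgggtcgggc
The Ebf3 window, of the member with the largest rise, was 80.0% G and C, above 98.8% of 32851 RefSeq windows of this length, and the Ebf4 window was 75.2%. The Ebf1 window was 52%, next to a median of 52.4% over all windows. A window before the other RefSeq start of Ebf1, which overlaps an annotated exon and is not printed, was richer in G and C than 11.8% of windows. Both Ebf1 windows lie inside the annotated gene, which starts at 44617317. The Ebf4 window also lies inside its annotated gene, which starts at 130295169. Both strands were searched for 3 motifs, namely CCCNNGGG, the longer Ebf sequence that adds a T before it and an A after it (so that each match of the longer holds the shorter), and TAATT. CCCNNGGG was found once in the Ebf3 window, 21 bases before the start, and in 0 of the other 3 windows, while 11.8% of all windows hold it. The longer sequence was in none of the 4 windows and in 0.779% of all windows. TAATT, a core that many homeodomain proteins bind, was found in the unprinted Ebf1 window only, 178 bases before the start, and is held by 25% of all windows. These matches are letters in a window and say nothing of binding.

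The 6 libraries held 10711630 to 16588359 counts, and 15326 genes had enough reads to be tested. The targeted genes matched the labels: Dlx1 was at 109.3, 119.3 and 137.6 CPM (counts scaled to a common library size) in the mutant libraries, against 831.4 to 898.4 CPM in wild type, and Dlx2 was at 15.5 to 18.7 CPM in mutant and 418.8 to 470.7 CPM in wild type. Markers of ganglionic eminence neurons were present in wild type, and 6 of 6 were lower in the mutant, among them Slc32a1, the vesicular GABA transporter, at 4.0 ± 1.17 CPM in mutant and 131.2 ± 6.74 CPM in wild type (mean ± SD, n = 3 each, as for all means below). By edgeR's quasi-likelihood test at a threshold of 0.05 on the p-value adjusted after Benjamini and Hochberg, 1715 genes rose in the mutant and 1958 fell, which is 11.2% and 12.8% of all tested genes, or 24.0% together. The median log2 fold change of tested genes was 0.0028.

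The 4 members passed the filter on low counts. Their values chose them, so that higher and lower below describe these libraries and no call is given. For each member the 3 mutant values lay on one side of the 3 wild type values, as they did for 41.9% of tested genes, and nothing is read from this count. In whole tissue, fewer cells that make a gene cannot be told apart from less RNA of it in each cell.

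Ebf1, the member of the striatal lineage, was the one that fell. The gene (ENSMUSG00000057098) lies on the plus strand of GRCm38 chromosome 11 at 44617317 to 45008091. Its level was 41.3, 50.6 and 47.9 CPM in mutant libraries 1 to 3, against 329.4, 314.2 and 310.9 CPM in wild type libraries 1 to 3. All mutant libraries were low, with a wide gap to the lowest wild type library. The means were 46.6 ± 4.82 CPM in mutant and 318.2 ± 9.83 CPM in wild type, a 6.83-fold lower level (log2 fold change −2.77 ± 0.092, SE). The remaining RNA was well above the detection limit, at 2239 reads over the mutant group and 13431 over the wild type group. Of all tested genes, 101 had a deeper fall.

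Ebf3, a close relative of Ebf1 that was scarce in wild type LGE, rose most. Ebf3 (ENSMUSG00000010476) lies on the minus strand of chromosome 7 at 137193673 to 137314445. It was at 219.4, 134.2 and 115.3 CPM in mutant libraries 1 to 3, against 2.30, 1.62 and 1.75 CPM in wild type libraries. The mutant libraries differed 1.90-fold among themselves, mutant library 1 being highest, yet the lowest of them stood far above every wild type library. The means were 156.3 ± 55.5 CPM in mutant and 1.89 ± 0.357 CPM in wild type, which is 82.7-fold (log2 fold change 6.39 ± 0.319). Without mutant library 1 the log2 fold change was 6.07. Only 7 tested genes had a larger log2 fold change.

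Ebf2, which is known from Cajal-Retzius cells, migrating neurons and brown fat, was rare in all libraries and rose to a low level. Ebf2 (ENSMUSG00000022053) lies on the plus strand of chromosome 14 at 67233292 to 67430918. The mutant libraries held 41, 42 and 24 reads (2.5, 2.66 and 1.51 CPM), against 2, 7 and 5 reads in the wild type libraries (0.191, 0.455 and 0.302 CPM). No wild type library reached 10 reads, so the gene passed the filter through the mutant libraries alone and had to differ to be tested. The means were 2.22 ± 0.622 CPM in mutant and 0.316 ± 0.132 CPM in wild type (log2 fold change 2.73 ± 0.391). The ratio of reads per total count was 6.84, with a 95% Clopper-Pearson counting interval of 3.90 to 12.9 that covers counting error only.

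Ebf4, the least studied member, had the smallest fold rise, and the smallest coefficient of variation in the mutant, among the members that rose. Ebf4 (ENSMUSG00000053552) lies on the plus strand of chromosome 2 at 130295169 to 130370481. It was at 27.6, 31.3 and 31.6 CPM in mutant libraries and at 16.5, 14.7 and 16.7 CPM in wild type libraries, with a narrow gap between the groups. The means were 30.1 ± 2.24 CPM in mutant and 16 ± 1.13 CPM in wild type, 1.88-fold higher (log2 fold change 0.92 ± 0.087). Its change was thus the opposite of that of Ebf1 in sign, and 601 tested genes had a larger rise.

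**Figure D1:**
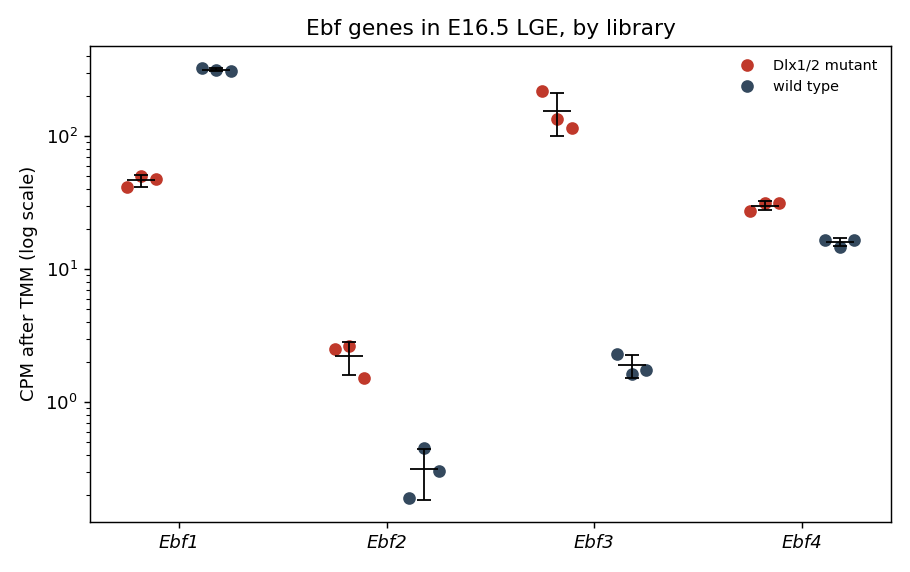
CPM after TMM normalisation, on a log axis, of the 4 Ebf genes in each library (points), with the mean (bar) and SD (whiskers) of the 3 mutant and 3 wild type libraries. Ebf1 is low in the mutant (41.3 to 50.6 CPM) and Ebf3 is high (115.3 to 219.4 CPM), and in no gene do the groups overlap.

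Spread between libraries differed among the members. In the mutant group the coefficient of variation was 35.5% for Ebf3 and 28.0% for Ebf2, against 10.3% for Ebf1 and 7.43% for Ebf4. The log2 SD of Ebf3 among mutant libraries was larger than that of 93.9% of tested genes. In wild type it was Ebf1 that varied least, at 3.09%, while Ebf4 stood at 7.06%, Ebf3 at 18.9% and Ebf2 at 41.9%, the last from single-digit reads. Mutant library 1 was not highest in general: among the 44 called genes at least 8-fold higher in the mutant, 14 were highest in mutant library 1, 11 in library 2 and 19 in library 3.

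Levels of different members were compared per length, in the FPKM values that the authors deposited, which are scaled by gene length and library depth. In the mutant the order was Ebf3 at 21.4 ± 7.73 FPKM, Ebf4 at 7.88 ± 0.547, Ebf1 at 4.0 ± 0.402 and Ebf2 at 0.199 ± 0.057 FPKM. In wild type the order was Ebf1 at 26.9 ± 0.478 FPKM, Ebf4 at 4.11 ± 0.275, Ebf3 at 0.254 ± 0.045 and Ebf2 at 0.028 ± 0.012 FPKM. The library values of neighbours in either order did not overlap, and the order was the same in each of the 3 libraries of its group. Against all genes of the table, Ebf3 stood above 89.9% in mutant and above 28.9% in wild type, and Ebf1 above 61.4% in mutant and above 92.3% in wild type.

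The member that made up most of the Ebf RNA differed between the genotypes. Ebf1 made up 12.4 ± 3.25% of the summed Ebf FPKM in mutant and 85.9 ± 0.805% in wild type. Ebf3 made up 62.7 ± 9.29% in mutant and 0.811 ± 0.126% in wild type, and Ebf4 24.3 ± 6.04% in mutant and 13.1 ± 0.799% in wild type. Ebf2 had the smallest share, at 0.596 ± 0.150% in mutant and 0.090 ± 0.040% in wild type. Its share per length depends on the length used, and with the union of annotated exons it was 1.02 ± 0.249% in mutant and 0.122 ± 0.054% in wild type. The ratio of Ebf3 to Ebf1 was 8.48, 4.23 and 3.84 in the mutant libraries, against 0.011, 0.0082 and 0.0090 in the wild type libraries.

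The summed level changed far less than its parts. The 4 genes together had 41.3, 31.2 and 28.1 FPKM in the mutant libraries, against 31.9, 30.8 and 31.1 FPKM in the wild type libraries, and these ranges overlap. Their means were 33.5 ± 6.88 FPKM in mutant and 31.3 ± 0.584 FPKM in wild type. The members that rose accounted for 29.5 ± 7.22 FPKM in mutant and 4.39 ± 0.288 FPKM in wild type. The sum rests on the lengths behind the FPKM values, which come to 11727 bases for Ebf1 and 7355 for Ebf3, whereas the longest annotated transcripts have 5981 and 4994 bases. With CPM per kilobase of the longest transcript the sum was 49.6 ± 9.72 in mutant and 59.0 ± 1.84 in wild type. With the union of annotated exons it was 31.3 ± 4.94 in mutant and 37.8 ± 1.18 in wild type. The direction of the difference thus depends on the length used. With the longest transcript the groups overlapped. With the exon union every mutant sum, 27.4 to 36.9, lay below every wild type sum, 37.0 to 39.2. The order of the 4 members was the same under all 3 lengths.

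**Figure D2:**
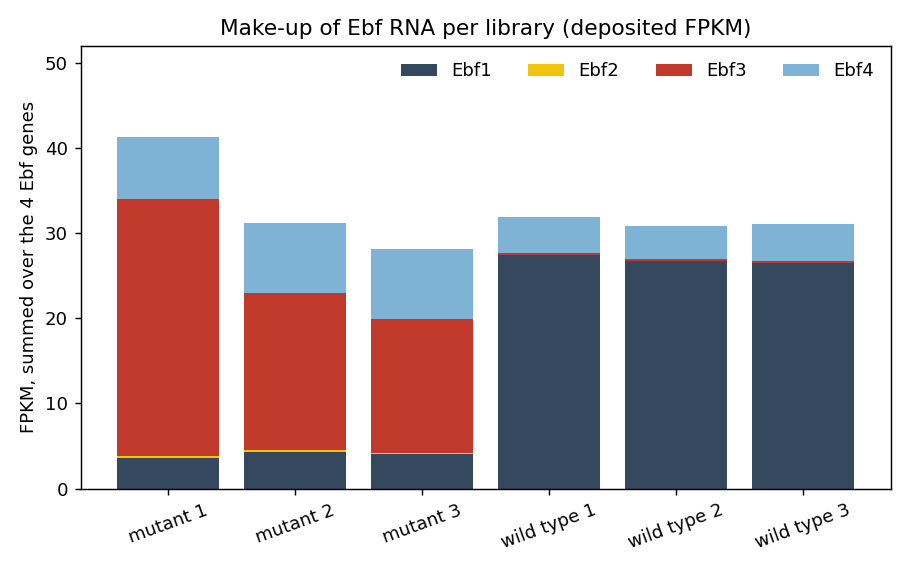
Stacked bars of the deposited FPKM values of Ebf1, Ebf2, Ebf3 and Ebf4 in each library, 3 mutant bars at the left and 3 wild type bars at the right. Ebf3 makes up 55.8 to 73.2% of a mutant bar and Ebf1 makes up 85.2 to 86.8% of a wild type bar.

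The annotated transcripts of the members share no exact stretch of 50 bases. How reads were assigned to the members in the counting was not checked. Of the windows of 50 bases in the annotated transcripts of each member, 0 of 9841 for Ebf1, 0 of 6924 for Ebf2, 0 of 9406 for Ebf3 and 0 of 3375 for Ebf4 occur in another member. Of 8 annotated genes that overlap a member, all on the opposite strand, 1 is in the table (Gm10860, opposite Ebf2), with 2 reads over the mutant group and 0 over the wild type group. No source used here gives the strand setting of the counting, and reads from opposite-strand transcripts within the Ebf exons would be counted with the member.

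RNA of 9 genes could be tested on a list of 10 partners and cofactors of Ebf proteins. Of these 6 were higher, 1 was lower and 2 did not pass, against 11.2% higher and 12.8% lower among all tested genes (median log2 fold change 0.51, beside 0.0028 over all tested genes). RNA of the related zinc finger proteins Zfp423 and Zfp521, which bind Ebf factors and hold back their activity, moved in opposite directions. Zfp423 was at 53.8, 51.4 and 51.8 CPM in the mutant libraries, against 19.0, 18.9 and 18.7 CPM in the wild type libraries. The groups were far apart and tight, and the rise was 2.77-fold (log2 fold change 1.47 ± 0.021, adjusted p = 3.51e-06, edgeR). Zfp521, which striatal neurons of the direct pathway also make, was at 64.5, 64.6 and 62.3 CPM in mutant and 101.3, 101.0 and 97.5 CPM in wild type. It was lower in every mutant library, with a log2 fold change of −0.65 ± 0.024 (adjusted p = 8.09e-05, edgeR).

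Pax5, a paired box factor that acts with Ebf1 in B cells and marks the midbrain-hindbrain border in the embryo, was at 8.66, 12.4 and 9.81 CPM in mutant and 1.53, 1.82 and 1.21 CPM in wild type. It rose 6.77-fold (adjusted p = 6.84e-05, edgeR). Prdm16, a zinc finger factor of radial glia that acts with Ebf2 in brown fat, was at 103.8 ± 2.51 CPM in mutant and 54.2 ± 4.87 CPM in wild type (adjusted p = 6.70e-05). The E proteins, general partners of basic helix-loop-helix (bHLH) factors, rose by less. Tcf12 rose 1.42-fold and Tcf3, the E protein that works with Ebf1 in B cells, 1.26-fold (adjusted p = 0.0040 and 0.0116, edgeR). Tcf4 was at 382.3, 381.1 and 261.3 CPM in mutant and at 267.6, 209.6 and 196.1 CPM in wild type, so that its groups overlapped, and its adjusted p of 0.0315 rose to 0.103 without mutant library 1, to 0.0990 without mutant library 2, to 0.0949 without wild type library 2 and to 0.0964 without wild type library 3. Cnot3 and Smarca4, subunits of an mRNA deadenylation complex and of a chromatin remodelling complex, did not pass the test (adjusted p = 0.239 and 0.331). Runx1 had 24 reads in mutant and 12 in wild type and was not tested.

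**Figure D3:**
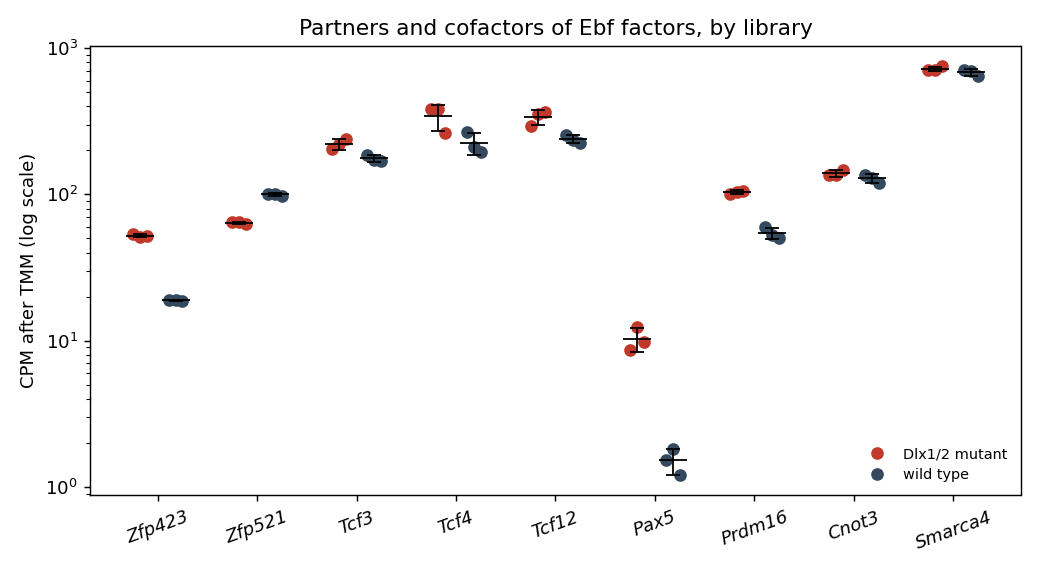
CPM after TMM normalisation, on a log axis, of the 9 tested partners and cofactors of Ebf factors in each library (points), with the mean (bar) and SD (whiskers) of 3 mutant and 3 wild type libraries. Zfp423 and Pax5 are higher in every mutant library and Zfp521 is lower in every mutant library.

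Most markers of striatal neurons and of the LGE mantle, where Ebf1 is normally made, were lower in the mutant. Of 8 tested genes of direct pathway striatal neurons 6 fell, of 7 of the indirect pathway, which makes little Ebf1, 5 fell, and of 12 genes of the LGE mantle 11 fell, against 12.8% of all tested genes. Sfxn1 and Eya1 of the direct pathway list had log2 fold changes of 0.10 and 0.18 and did not pass (adjusted p = 0.472 and 0.597, edgeR). Nor did Six3 and Sp9 of the indirect pathway list (adjusted p = 0.583 and 0.254) or Epha4 of the mantle list (adjusted p = 0.710). None of the tested genes of these lists rose by edgeR, nor by DESeq2, nor at an unadjusted p below 0.05. Their median log2 fold changes were −1.74, −1.70 and −3.12. Slc35d3, an orphan transporter gene of direct pathway neurons, was at 1.12 ± 0.280 CPM in mutant and 12.5 ± 0.668 CPM in wild type (adjusted p = 7.72e-06). Gpr6, an orphan receptor gene of the indirect pathway, was at 0.083 ± 0.037 CPM in mutant and 3.07 ± 0.753 CPM in wild type (adjusted p = 7.30e-05). It had 4 reads over the mutant group and 135 over the wild type group. Gpr6 thus passed the filter through its wild type reads alone and had to be high there to be tested. The 6.83-fold drop of Ebf1 lay within the range of the tested genes of these lists. That range ran in log2 fold change down to −5.09, for Gpr6 and for Rxrg of the mantle list, which had 192 mutant reads.

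Cajal-Retzius cells make Ebf2 and Ebf3 elsewhere in the brain. Of 8 of their markers 7 were tested, and 3 fell, 2 rose and 2 did not pass (median −0.87), against 24.0% of all tested genes called in either direction. Both that rose, Lhx1 and Lhx5, passed the filter through their mutant reads alone and had to be high there to be tested. Trp73, the gene that best defines these cells, had 15 reads in mutant and 13 in wild type and was not tested. Reln, the secreted protein of Cajal-Retzius cells and other neurons, was lower, at 24.7 ± 4.36 CPM in mutant and 116.1 ± 8.23 CPM in wild type (adjusted p = 1.14e-05, edgeR). Calb2, the calcium-binding protein calretinin, and Ndnf, a secreted factor, were lower too, at 1.5 ± 0.164 and 5.58 ± 0.694 CPM in mutant against 3.86 ± 1.08 and 10.2 ± 0.834 CPM in wild type. The LIM homeobox genes Lhx1 and Lhx5 were rare. Lhx1 had 71 reads over the mutant group and 3 over the wild type group, 21.2 times as many per total count (95% counting interval 6.96 to 105), and Lhx5 had 61 and 2 reads, 27.3 times as many (7.24 to 230). Tbr1, a T-box factor of pallial neurons, was at 9.75, 6.77 and 4.21 CPM in mutant and 5.74, 19.9 and 12.2 CPM in wild type, so that the groups overlapped (adjusted p = 0.182, or 0.0405 without wild type library 1). Cacna2d2, a calcium channel subunit, did not pass (adjusted p = 0.134).

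Among 13 transcription factors of diencephalic, midbrain and spinal neurons, 7 of 8 tested genes rose, against 11.2% of all tested genes. The other, Onecut2, did not pass (adjusted p = 0.122, edgeR). Of the 8, 4 had fewer than 10 reads in each wild type library. These were tested through their mutant reads only and had to be high there to be tested. Otp and Lhx9, with 25 and 26 reads over the 3 wild type libraries, could not pass the filter on wild type alone either. Nothing is therefore read from the share that rose. Lhx9, a LIM homeobox factor of the diencephalon, was at 14.9, 12.4 and 17.3 CPM in mutant and 0.765, 0.520 and 0.604 CPM in wild type. The summed level of the 13 genes, carried mainly by Otp, a homeobox factor of the hypothalamus, was 516.0, 538.9 and 584.0 CPM in mutant libraries 1 to 3, against 14.9 to 18.3 CPM in wild type. This sum was lowest in mutant library 1, where Ebf3 was highest. Which mutant library was highest differed between genes of the list, with Tal2 highest in library 1, Tfap2b in library 2 and Otp in library 3. The part of such neurons in the Ebf3 values was not tested.

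Basic helix-loop-helix factors, some of which act upstream of Ebf genes in frog embryos, were mostly higher. Of 7 tested members 6 rose, against 11.2% of all tested genes. Among the 6, Nhlh1 and Nhlh2 passed the filter through their mutant reads alone and had to be high there to be tested. Nhlh1, a bHLH factor of newly born neurons, was at 9.81, 8.35 and 7.11 CPM in mutant and 0.383, 0.585 and 0.483 CPM in wild type, a 17.4-fold rise (adjusted p = 1.48e-05, edgeR). Neurog2, the proneural factor of the pallium, was at 2.99, 6.33 and 1.89 CPM in mutant and 7.65, 10.9 and 7.66 CPM in wild type and did not pass (adjusted p = 0.0515), while 1 member of this list was lower by DESeq2, with no filter on low counts, with a replicate block and without mutant library 2. Neurog2 is named after its values were seen.

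**Figure D4:**
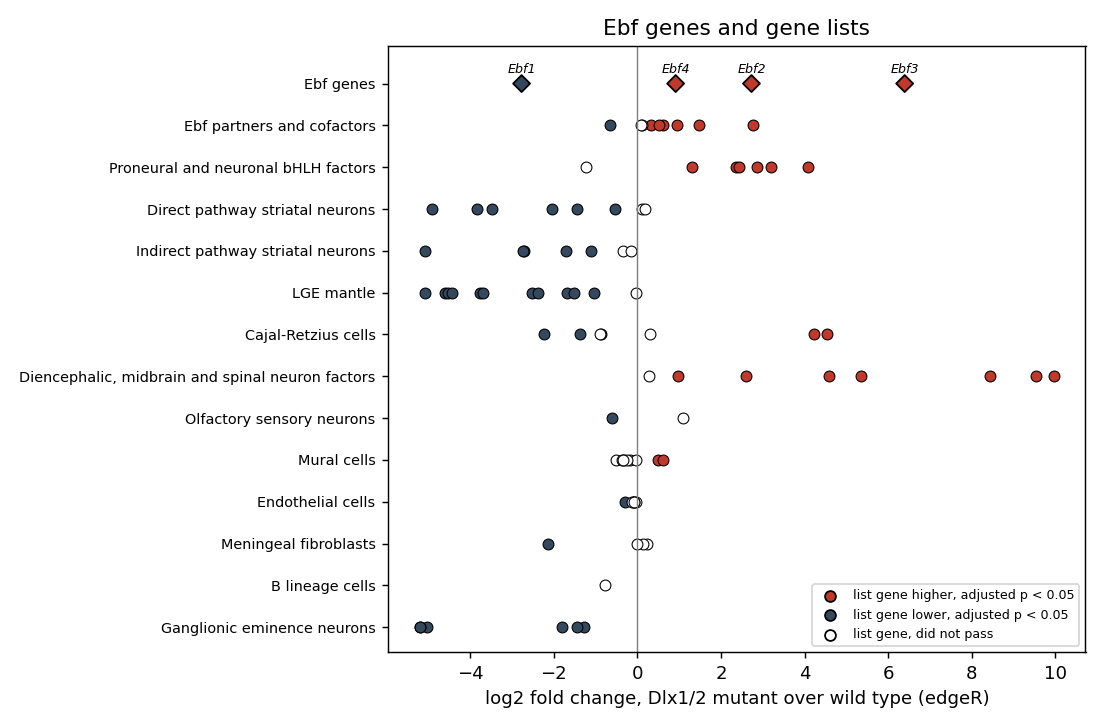
Log2 fold change, Dlx1/2 mutant over wild type, of the tested members of each list (circles, coloured where the adjusted p is below 0.05) and of the 4 Ebf genes (diamonds, coloured by direction only). Ebf1 lies among the lowered striatal lists and Ebf2 and Ebf3 among raised neuronal factors, and values of genes with 3 or fewer wild type reads, such as Lhx1 and Lhx5, are fitted values only.

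Other cell types that make Ebf genes were checked by their markers. Mural cells of blood vessels make Ebf1. Of 9 mural markers, 2 rose and 1 fell, or 33.3%, against 24.0% of all tested genes called in either direction. Pdgfrb rose 1.41-fold and Notch3, which progenitor cells make as well, 1.52-fold. The channel subunit gene Abcc9 fell (log2 fold change −0.32), a call that DESeq2 did not make (adjusted p = 0.0587). Rgs5 and Vtn, more particular to mural cells, were at 45.6 ± 1.02 and 12.7 ± 1.41 CPM in mutant and at 51.9 ± 3.54 and 15.1 ± 1.54 CPM in wild type (adjusted p = 0.0886 and 0.180, edgeR). Kcnj8, which fell most on this list, did not pass either (log2 fold change −0.51, adjusted p = 0.0553, edgeR). At an unadjusted p below 0.05, 2 mural markers were higher and 3 lower. The summed mural level was 333.9 to 348.1 CPM in mutant and 277.3 to 287.9 CPM in wild type, a sum raised by Notch3 and Pdgfrb. The median log2 fold change of the 9 markers was −0.25, with values from −0.51 to 0.61, beside −2.77 for Ebf1. The part of mural cells in the Ebf1 values was not tested. Of 6 endothelial markers 1 passed, or 16.7%, beside the same 24.0%. It was Flt1, lower by 0.31 on the log2 scale, again not called by DESeq2 (adjusted p = 0.0544).

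Meningeal, B lineage and olfactory sensory markers were scarce. Meningeal fibroblast markers summed to 14.7 to 18.6 CPM in mutant and 17.9 to 19.1 CPM in wild type. Of 4 tested, 1 was lower, against 12.8% of all tested genes. That was Col1a1, whose adjusted p of 0.0163 rose to 0.0631 without mutant library 1, to 0.0597 without mutant library 3 and to 0.0553 without wild type library 3. B lineage markers summed to 1.10 to 1.39 CPM in mutant and 1.15 to 1.88 CPM in wild type. Only Vpreb1 of that list was tested, and it did not pass (adjusted p = 0.158, edgeR), nor did it by DESeq2 or at an unadjusted p below 0.05. Among olfactory sensory neuron markers, Omp had 12 reads in mutant and 4 in wild type and Cnga2 had 2 in each group, while Adcy3, an adenylyl cyclase of many cilia, gave most of the summed level of 23.0 to 25.4 CPM in mutant and 32.4 to 37.7 CPM in wild type. The part of these cells in the Ebf values was not tested.

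The genes most like each member in pattern were taken by the smallest Euclidean distance between log2 CPM profiles over the 6 libraries, each centred on its mean. For Ebf1 they were Dlx1 (distance 0.210), Stac2, an adaptor of calcium channels (0.219), Dgkk, a diacylglycerol kinase (0.310), Six3os1, the opposite-strand transcript of Six3 (0.313), and Egr3, an early growth response factor (0.360). Dlx1 is one of the mutated genes and stood 7.03-fold lower, next to the 6.83-fold drop of Ebf1. Such nearness in fold follows from picking genes for likeness over these same libraries, and a link between Dlx1 and Ebf1 levels was not tested. Six3os1 was at 59.0 ± 5.41 CPM in mutant and 422.0 ± 56.6 CPM in wild type. Since strand use is not stated, Six3os1 and Six3 cannot be told apart where they overlap.

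For Ebf2 the nearest profiles were those of 3 bHLH factors of pallial excitatory neurons, Neurod1 (0.597), Neurod6 (0.700) and Neurod2 (0.748), together with Vwc2l (0.708) and Fli1, an ETS factor (0.763). Neurod6 was at 55.8, 42.3 and 35.7 CPM in mutant and 3.73, 12.3 and 8.09 CPM in wild type. Within wild type, library 2 was highest and library 1 lowest in Ebf2 and in all 3 Neurod genes, as in Tbr1. The Neurod genes were picked for likeness to Ebf2 over these same libraries, and in Ebf2 this order rests on 2 to 7 reads. The part of pallial neurons in the Ebf2 values was not tested.

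For Ebf3 the nearest profiles lay farther off. They were Duxbl1 (0.824), Platr26 (1.19), Tal2, a bHLH factor of midbrain GABA neurons (1.85), Evx2, a homeobox factor (1.95), and Lmx1b, a LIM homeobox factor of the midbrain and hindbrain (2.06). Duxbl1 had 92 reads in mutant and 0 in wild type, at least 27.4-fold higher against a floor of 3 counts over the wild type group. Platr26 had 72 and 0 reads, at least 21.5-fold higher. Duxbl1 was highest in mutant library 1, as Ebf3 was, at 2.86 CPM, against 1.52 and 1.32 CPM in mutant libraries 2 and 3. Lmx1b had 82 reads in mutant and 1 in wild type (ratio 73.4, 95% counting interval 12.8 to 2932) and was highest in mutant library 3. Tal2 was at 13.8, 12.5 and 12.8 CPM in the mutant libraries, against 0.765, 0.130 and 0.181 CPM in the wild type libraries.

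For Ebf4 the nearest profiles belonged to genes of moderate rise. They were Peg12, an imprinted gene (0.093), Sox9, a factor of radial glia (0.124), Peli2, a ubiquitin ligase (0.141), Zmiz1, a transcriptional coregulator (0.148), and Ahcy, an enzyme of the methionine cycle (0.159). Zmiz1 was at 1028 ± 38.2 CPM in mutant and 555.5 ± 28.0 CPM in wild type. It was 1.85-fold higher, next to the 1.88-fold of Ebf4, a nearness that follows from the choice. The distances around Ebf4 were the smallest of the family.

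**Figure D5:**
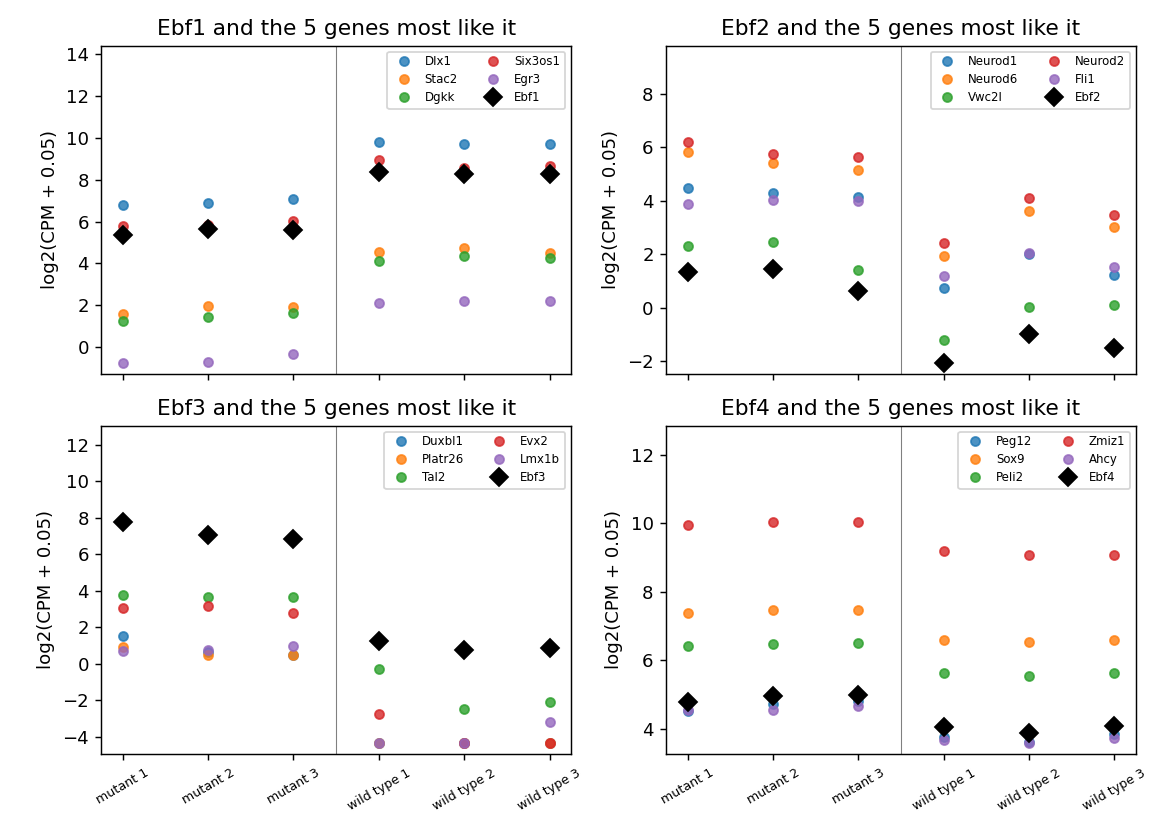
Log2 of CPM plus 0.05 in each library for each Ebf gene (black diamonds) and the 5 genes with the nearest centred profiles (circles), mutant libraries left of the line and wild type libraries right of it. Ebf1 and its neighbours are low in the mutant, and in the Ebf2 panel wild type library 1 is the lowest point for 6 of 6 genes, which were picked for likeness over these libraries.

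Among all tested genes 24.0% passed the test, and with few tested genes beside Ebf1 and Ebf3 nothing is read from their counts. Within 1 Mb of the start of Ebf1, 0 of 5 tested genes passed the test by edgeR, DESeq2 or at an unadjusted p below 0.05. Within 1 Mb of Ebf3, 0 of 2 passed by edgeR or DESeq2, and at an unadjusted p below 0.05 1 was higher and 1 lower. Rnf145, a ubiquitin ligase gene whose start lies 98353 bases from that of Ebf1, was at 173.0 ± 2.33 CPM in mutant and 166.4 ± 4.51 CPM in wild type (adjusted p = 0.398, edgeR). 9430038I01Rik, 96317 bases from Ebf3, was at 3.93 ± 0.494 CPM in mutant and 2.75 ± 0.142 CPM in wild type (adjusted p = 0.0699). Around Ebf4, 3 of 36 tested genes were higher and 2 lower, or 13.9%, and the difference from the share over all genes was not tested. Idh3b, a subunit of a citric acid cycle enzyme 10622 bases away, and Cpxm1, on the other side, did not pass (adjusted p = 0.547 and 0.420).

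The surroundings of Ebf2 differed in their count. There 4 of 15 tested genes were higher and 5 lower, or 60.0%, against 24.0% of all tested genes; the difference itself was not tested. The calls went in both directions, with a median log2 fold change of −0.14. The nearest tested gene on one side was Ppp2r2a, a regulatory subunit of protein phosphatase 2A, at 97.8 ± 2.46 CPM in mutant and 122.0 ± 1.71 CPM in wild type (adjusted p = 0.0023, edgeR), and on the other side Gm20667 (adjusted p = 0.914). Over all 4 members 14 of 58 tested neighbours passed, or 24.1%, the share found among all genes.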

How the data were processed

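RNA-seq of LGE from 3 Dlx1/2 mutant and 3 wild type libraries was analysed. The submitters' processing notes list the builds mm10 and GRCm38.p4 and the tools StringTie 1.3.0, HISAT2 2.0.4 and edgeR, with no role given. Counter, annotation and strand setting are left unnamed there. The deposited table holds whole-number counts and FPKM per gene and library, per the file headers. The authors' deposited p-value column was not used. FPKM followed count per total by a constant for each gene (checked in 11418 genes whose counts all exceed 50, tolerance 0.0001).

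Counts of 21286 genes were filtered with filterByExpr by group (15326 left), scaled by TMM and tested, mutant against wild type, with glmQLFit and glmQLFTest of edgeR 4.0.16 in R 4.3.3, two-sided, with Benjamini-Hochberg adjustment over all tested genes (threshold 0.05). The biological coefficient of variation was 0.122. SEs come from log2 CPM with 0.5 added to each count. A floor of 3 counts is 0.181 to 0.287 CPM per library. Positions come from GENCODE M21 on GRCm38 (99.3% of gene IDs found) and promoter windows from RefSeq on GRCm38.p6, which gave entries for 3 of 4 members; a window for Ebf2 is not used here. Replicates differed beyond sampling noise (chi-square per degree of freedom 6.03 to 11.7).

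The members and the 13 lists (110 symbols, 106 found) were chosen with earlier results of these data known, so their directions are not independent evidence. Genes named are the members, the partner and Cajal-Retzius lists, up to 4 called members of each other list by adjusted p (not all are given), the nearest tested neighbours, and the 5 nearest profiles per member, clone names left out. Neurog2, Onecut2, Nhlh2, Sfxn1, Eya1, Six3, Sp9, Epha4, Rgs5, Vtn, Kcnj8, Omp and Cnga2 were named after their values were seen. Alternatives were RLE scaling, no filter, DESeq2 1.42.0, a replicate block, leaving out each library and an adjusted p below 0.01. Other lengths for the summed Ebf level were added after seeing the data. The fit was tested on simulated counts.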

Additional observations from a re-analysis of the deposited data

How the results depend on the processing

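RLE scaling gave 1708 genes higher and 1959 lower in the mutant, no filter on low counts gave 1603 and 1903, and DESeq2 gave 1578 and 1825, beside 1715 and 1958. An adjusted p below 0.01 left 875 higher and 1116 lower, and near the Ebf genes 4 higher and 4 lower. Leaving out 1 library gave 1211 to 1626 genes higher and 1416 to 1956 lower, and near the Ebf genes 4 to 7 higher and 5 to 7 lower. The members kept their direction throughout, at −2.83 to −2.69 for Ebf1, 2.53 to 3.07 for Ebf2, 6.07 to 6.57 for Ebf3 and 0.85 to 0.98 for Ebf4 (log2 fold change). With a replicate block 1223 genes were higher and 1458 lower, and 4 near the Ebf genes were higher. Deviations of samples with the same number had correlations of −0.176, 0.0426 and −0.168, so the numbers do not pair the samples. No sample was most like the sample of its own number. The log2 fold change of Gm20667, −0.04, was −0.15 without mutant library 2 and turned to 0.0642 without mutant library 1 and to 0.0903 without wild type library 1; the cause was not tested. The calls of Abcc9 and Flt1 were also lost under the block and without most single libraries.

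Length scaling, an alternative chosen after seeing the data, moved the per-length values by construction. With the longest transcript the summed level was 49.6 in mutant and 59.0 in wild type, Ebf1 made up 16.3% in mutant and 90.2% in wild type, and Ebf3 0.640% in wild type. With the exon union Ebf3 made up 53.0% in mutant and 0.540% in wild type, where the sum was 37.8. Without single libraries the summed FPKM ranged over 29.6 to 36.2 in mutant and 30.9 to 31.5 in wild type. Ebf2 rests on 2 to 7 reads per wild type library.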
